A study of Mus musculus with 4 samples.

Results

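The 10 genes described here encode subunits of the 4 protein complexes whose loss causes Hermansky-Pudlak syndrome (HPS), and they were followed in RNA-Seq of ILC2s sorted from mouse lung. They were chosen by name, as *Hps1* and *Hps4* of BLOC-3, *Hps3*, *Hps5* and *Hps6* of BLOC-2, *Dtnbp1*, *Bloc1s3* and *Bloc1s6* of BLOC-1, and *Ap3b1* and *Ap3d1* of AP-3. All 10 were found once each among the 49315 genes of the count table, and all 10 were among the 14840 compared genes, those at 1 CPM or more in some library (CPM are read counts scaled to a common library size, here with TMM factors). There were 4 groups of 1 library each. PBS-WT and BLEO-WT came from WT mice given PBS or bleomycin, and PBS-HPS1 and BLEO-HPS1 from *Hps1*-/- mice given the same. Per the study's methods, WT mice were C57BL/6 and the genetically modified mice were congenic on that background. Bleomycin was the agent of lung injury, and the sorted cells, Lineage-Thy1.2+ICOS+T1/ST2+, were cultured with IL-2 before RNA extraction. All 4 groups shared the sort and the culture. The study describes the *Hps1* allele of these mice as null. The number of mice behind a library was not given in the sources used here.

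Biogenesis of lysosome-related organelles complexes, or BLOCs, and the adaptor AP-3 route cargo from endosomes to lysosomes and to related organelles such as melanosomes, platelet dense granules and the lamellar bodies of alveolar type II cells. BLOC-3, the dimer of the *Hps1* and *Hps4* products, activates the small GTPases Rab32 and Rab38, BLOC-2 directs carriers toward the maturing organelle, BLOC-1 shapes carriers that leave endosomes, and AP-3 gathers membrane cargo into vesicles. Mice lacking a subunit are classical coat-colour mutants, and patients have albinism and a bleeding tendency, with lung fibrosis in some subtypes.

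Total counts lay between 72513619 and 87638154 reads, and the study's methods give between 22405 and 128647 cells per library. With 1 library per group no difference could be set against the spread between mice, so no test of a condition is given. The 95% intervals below, exact Clopper-Pearson intervals on the reads unless another kind is named, cover counting error only. The genotype ratio is the log2 ratio of *Hps1*-/- over WT CPM at the same treatment, and the bleomycin ratio that of bleomycin over PBS in the same genotype, both with a prior count of 2. A ratio of at least 1 in size is called 2-fold. Where it matters, ratios are also given with total counts in place of TMM factors, and corrected by loess on the GC content and length of transcripts, called the GC correction. *Gata3*, the transcription factor of ILC2s, was at 25.1 to 39.1 CPM, but *Il13*, a cytokine of these cells, did not exceed 1.43 CPM. The summed CPM of 15 ILC2 markers ran from 1514 to 2337 and that of 7 macrophage and monocyte markers from 7614 to 16540, although the gate removes CD11b+ cells. *Lyz2* alone held 6083 to 13145 CPM of the macrophage and monocyte sum, and *Ptprc* 333 to 1430 CPM of the ILC2 sum. Such sums are not amounts of each cell type. The 6 fibroblast markers summed to 164 CPM in PBS-WT and 2680 in BLEO-HPS1. The values below are therefore those of the sorted libraries as a whole, in which fewer cells of a type and less RNA per cell cannot be told apart.

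*Hps1* (ENSMUSG00000025188, protein coding, minus strand, chr19:42755105-42779978 of GRCm38) was the single member at least 2-fold lower in both *Hps1*-/- libraries. It had 2989 reads in PBS-WT and 1647 in PBS-HPS1, and 3795 in BLEO-WT against 1347 in BLEO-HPS1, or 38.3 and 16.6, and 48.4 and 21.3 CPM. Each *Hps1*-/- library thus lay below both WT libraries without being empty, and counts per gene do not show which part of the transcript those reads cover. The genotype ratio was -1.20 with PBS (95% interval -1.29 to -1.12), which is 2.30-fold lower, and -1.18 with bleomycin (-1.27 to -1.09), which is 2.27-fold lower. Of all compared genes, 2.14% had a lower genotype ratio with PBS and 5.59% with bleomycin. At least 2-fold lower in both were 76 genes (0.512%), and 54, *Hps1* included, lay at or below both ratios of *Hps1*. The bleomycin ratios of *Hps1* were 0.34 (0.27 to 0.41) in WT and 0.36 (0.25 to 0.46) in *Hps1*-/- mice, but 0.07 and -0.28 with total counts and 0.14 and -0.06 with the GC correction.

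*Hps4* (ENSMUSG00000042328, plus strand, chr5:112343083-112378414), the light ear gene, encodes the other subunit of BLOC-3 and did not follow its partner. In the order PBS-WT, then PBS-HPS1, then BLEO-WT and lastly BLEO-HPS1, which is kept from here on, it had 2552, 2720, 2900 and 2432 reads, or 32.7, 27.5, 37.0 and 38.5 CPM. Its genotype ratio was -0.25 (-0.33 to -0.17) with PBS and 0.06 (-0.02 to 0.14) with bleomycin, and its bleomycin ratio 0.18 in WT and 0.49 in *Hps1*-/- mice. With total counts the genotype ratios of *Hps4* were -0.01 and -0.08 and its bleomycin ratios -0.09 and -0.16. With the GC correction the genotype ratio with bleomycin was -0.30 and the bleomycin ratios 0.01 and -0.02. None of these directions but the lower level with PBS therefore held in every setting, and with total counts that level, at -0.01, could not be told from 0. The number of *Hps1* reads per *Hps4* read, which needs no scaling of libraries, was 1.17, 0.606, 1.31 and 0.554. Reads of *Hps1* therefore outnumbered those of *Hps4* in both WT libraries and were outnumbered in both *Hps1*-/- libraries. The log2 change of this quotient from WT to *Hps1*-/- was -0.95 with PBS (-1.07 to -0.84, normal interval on log counts) and -1.24 with bleomycin (-1.36 to -1.12). From PBS to bleomycin it was 0.16 (0.06 to 0.26) in WT and -0.13 (-0.26 to 0.00) in *Hps1*-/- mice.

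**Figure D1:**
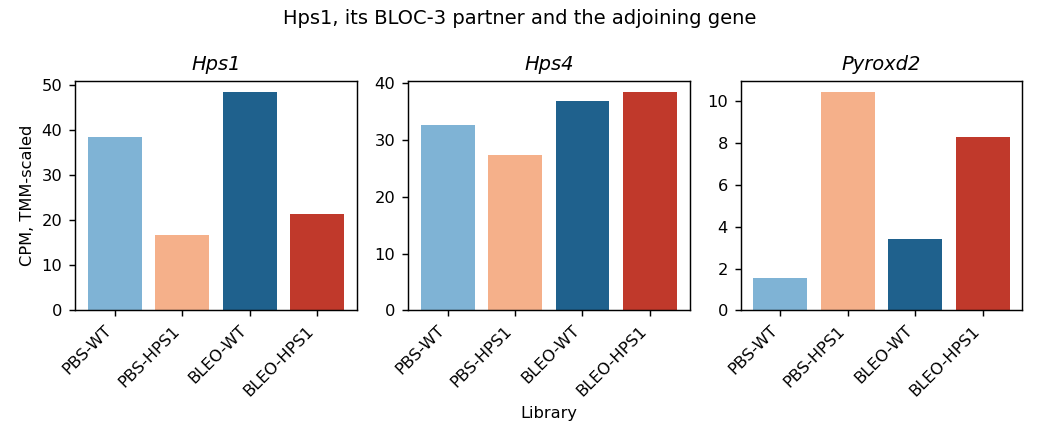
CPM (linear axes from 0) of *Hps1*, of *Hps4* and of *Pyroxd2*, the neighbour of *Hps1* on the chromosome, with 1 bar for each of the 4 libraries and no error bar, since no group had a replicate. *Hps1* is lower and *Pyroxd2* higher in each *Hps1*-/- library than in the WT library of the same treatment, while *Hps4* lies between 27.5 and 38.5 CPM.

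The gene next to *Hps1* differed in the opposite direction. *Pyroxd2* encodes an oxidoreductase-like protein, lies on the same strand (chr19:42725858-42752775), and follows *Hps1* beyond its 3′ end, with 2329 bases between the annotated ends. It had 122, 1034, 269 and 524 reads, or 1.57, 10.4, 3.43 and 8.29 CPM, so both *Hps1*-/- libraries lay above both WT libraries. Its genotype ratio was 2.72 (2.47 to 3.02) with PBS, a 6.58-fold difference that 21 of the 14840 compared genes exceeded, and 1.27 (1.06 to 1.49) with bleomycin, exceeded by 607. With the GC correction these came to 2.73 and 0.93, the second no longer 2-fold, and with total counts they were 2.98 and 1.14. At least 2-fold higher in both *Hps1*-/- libraries were 126 compared genes, 0.849% of the total.

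Within 500 kb of *Hps1* there were 4 compared genes, *Pyroxd2* among them, and with TMM factors none of the 4 was 2-fold lower in an *Hps1*-/- library. *R3hcc1l*, with 3188, 2857, 1708 and 724 reads, had genotype ratios of -0.50 with PBS and -0.93 with bleomycin, the latter -1.06 with total counts and then past 2-fold. *Loxl4*, a lysyl oxidase-like enzyme that cross-links collagen, had 49, 111, 86 and 152 reads and genotype ratios of 0.81 and 1.12, the latter with an interval of 0.74 to 1.53 that held values on both sides of 2-fold. *Gm16244*, on the other strand, shares 241 exon bases with *Hps1* and had 9 to 44 reads. The strand setting of the counting is not given in the sources used here, so reads of overlapping genes on opposite strands may not have been told apart.

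Over the 4 libraries, the genes whose centred log2 CPM lay nearest to those of *Hps1*, among 9413 with a mean of at least 10 CPM, were *Clec5a*, *Mfsd13a*, *Asprv1*, *Ccr2* and *Bhlhe41*, at Euclidean distances of 0.251 to 0.377. *Clec5a* and *Ccr2* encode surface receptors of myeloid cells. All 5 neutrophil markers were also lower in each *Hps1*-/- library than in the WT library of the same treatment, with summed CPM of 1256, 357, 702 and 300.3, and their defining marker *Ly6g* was at 0.586 to 4.05 CPM. Of 7 macrophage and monocyte markers, 6 were lower with PBS and 6 with bleomycin, with sums of 11432, 7614, 16540 and 15276 CPM. Some other lists were lower as well. All 5 mast cell and basophil markers were lower with both treatments (37.3, 20.8, 6.99 and 3.12 CPM in sum), and of 5 epithelial markers (1075, 737, 543 and 352 CPM) and 5 platelet markers (33.0, 26.2, 45.4 and 37.6 CPM) all 5 were lower with PBS and 4 with bleomycin. NK cell and fibroblast markers went the other way, with 0 of 5 and 0 of 6 lower with either treatment. Of 5 B cell markers 1 was lower with PBS and 0 with bleomycin, and of 7 T cell markers 7 and 0. Of 4 endothelial markers 4 and 1 were lower, and of 15 ILC2 markers 8 and 10. Among all compared genes, 70.8% had a genotype ratio below 0 with PBS and 52.2% with bleomycin. The median of all compared genes with PBS was -0.19 with TMM factors and 0.05 with total counts. The direction of markers with small ratios therefore depends on the scaling. No marker of these lists was at 0 in any library, and the part of these cells in the level of *Hps1* was not tested.

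Of the 10 members, 1 was at least 2-fold lower in PBS-HPS1 than in PBS-WT, where 3.11% of the compared genes were, and 0 were 2-fold higher, where 2.16% were (5.27% in either direction). That member was *Hps1*, whose ratio was -0.96 with total counts, so that none was then past 2-fold. All 10 genotype ratios with PBS were below 0, from -1.20 to -0.01, with a median of -0.26. The median of all compared genes was -0.19, and 70.8% of them were below 0. With total counts that median was 0.05 and 3 of the members were above 0, *Hps3* at 0.15, *Hps5* at 0.08 and *Ap3d1* at 0.24.

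In BLEO-HPS1 against BLEO-WT, 2 members were at least 2-fold lower, *Hps1* and *Hps3*, where 10.3% of the compared genes were, and 0 were 2-fold higher, where 6.72% were (17% in either direction). Genotype ratios of the 10 ran from -1.18 to 0.58, with a median of -0.12, and the median of all compared genes was -0.04. *Hps6* and *Bloc1s3* were the highest, at 0.58 and 0.53. *Hps3* came to -0.995 with DESeq2's size factors and to -0.52 with the GC correction, so that *Hps1* was then the 1 member past 2-fold.

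**Figure D2:**
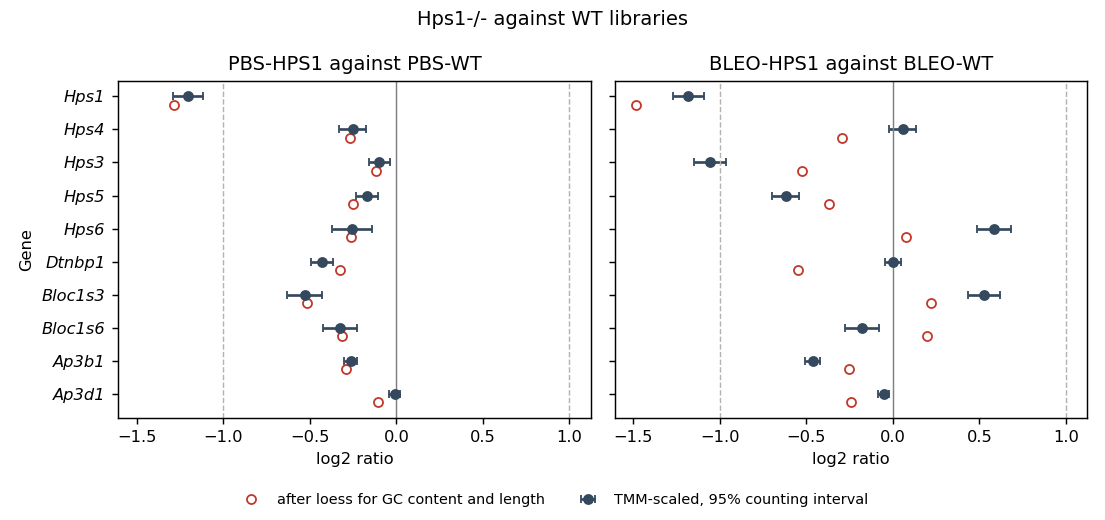
Log2 ratios of *Hps1*-/- to WT (horizontal axes) for the 10 genes (vertical axis), with PBS on the left and bleomycin on the right. Filled points are TMM-scaled ratios with 95% exact intervals for counting error, open points the ratios after the GC correction, and dashed lines mark 2-fold. *Hps1* lies beyond the lower line in both panels, at -1.20 and -1.18, and *Hps3* crosses it with bleomycin at -1.06 before the correction and not after it, at -0.52.

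Genotype ratios with bleomycin went with the base composition and length of the transcripts, and those with PBS with length. Over 11133 genes whose mean log2 CPM exceeded 2, the rank correlation (Spearman's rho) of transcript GC content with the genotype ratio was 0.609 with bleomycin and -0.0726 with PBS, and that of transcript length -0.493 with bleomycin and 0.429 with PBS. These are correlations across genes of the same libraries, which are not independent replicates. Among the 9 members other than *Hps1*, the 4 with a GC content under 50%, namely *Hps3* (43.6%), *Bloc1s6* (44.9%), *Ap3b1* (48.2%) and *Hps5* (49.2%), had the 4 lowest genotype ratios with bleomycin. *Hps1*, with 57.0% GC, did not follow this order. The 556 genes of its bin of GC content, 1 of 20 bins, had a median of 0.42, with the middle 50% of them from 0.09 to 0.69, against -1.18 for *Hps1* itself. The bin that holds *Hps3* had a median of -0.66 and quartiles of -0.97 and -0.27, so that *Hps3*, at -1.06, lay just below the lower one.

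**Figure D3:**
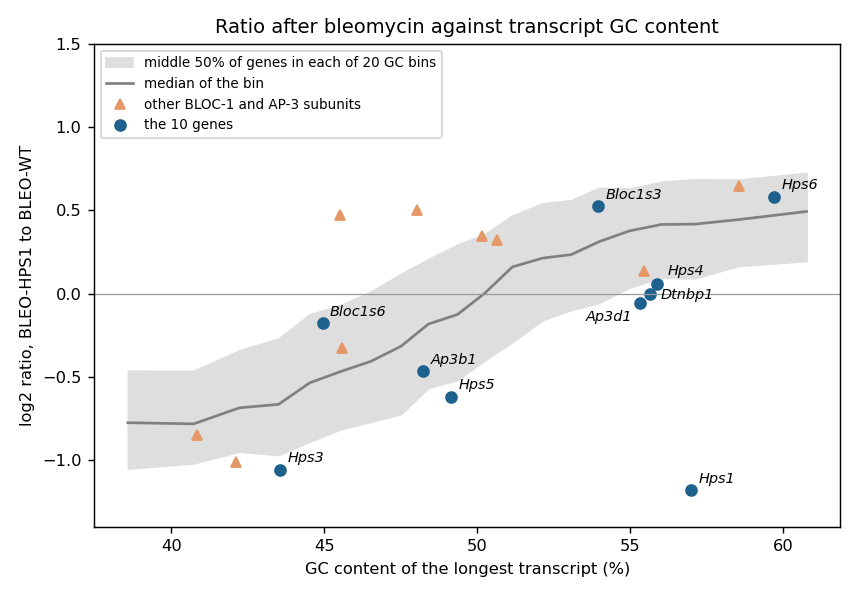
Genotype ratio with bleomycin on the log2 scale (vertical axis) against the GC content of the longest annotated transcript in percent (horizontal axis). Circles are the 10 genes, triangles the 9 compared other subunits of BLOC-1 and AP-3, the line the median and the band the middle 50% of genes in each of 20 bins of GC content. The band rises with GC content, and *Hps1* lies under it, at 57.0% GC and a ratio of -1.18.

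The subunits of BLOC-2 parted from each other in BLEO-HPS1. *Hps3* (ENSMUSG00000027615, minus strand, chr3:19995945-20035315), the gene of the cocoa mutant, had 3897, 4623, 3308 and 1281 reads, or 49.99, 46.7, 42.2 and 20.3 CPM, so that BLEO-HPS1 lay well below the other 3 libraries. Its genotype ratio was -0.10 (-0.16 to -0.04) with PBS and -1.06 (-1.15 to -0.96) with bleomycin. Its bleomycin ratio was -0.24 in WT and -1.20 (-1.29 to -1.11) in *Hps1*-/- mice, which the GC correction took to 0.11 and -0.30. *Hps5* (ENSMUSG00000014418, minus strand, chr7:46760466-46796064), whose loss gives the ruby-eye 2 mouse, was also lowest in BLEO-HPS1, with 3574, 4038, 3818 and 2004 reads, or 45.8, 40.8, 48.7 and 31.7 CPM. The genotype ratios of *Hps5* were -0.17 (-0.23 to -0.10) and -0.62 (-0.70 to -0.54).

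*Hps6* (ENSMUSG00000074811, plus strand, chr19:46003508-46006173), the ruby-eye gene, was instead highest in BLEO-HPS1. Its reads were 1198, 1273, 1579 and 1906, or 15.4, 12.9, 20.1 and 30.2 CPM. The genotype ratio was -0.26 (-0.37 to -0.14) with PBS and 0.58 (0.49 to 0.68) with bleomycin, and the bleomycin ratio was 0.39 in WT and 1.23 (1.13 to 1.33) in *Hps1*-/- mice. After the GC correction the genotype ratio with bleomycin was 0.08 and the bleomycin ratio in *Hps1*-/- mice 0.52. There were 3.25, 3.63, 2.10 and 0.672 reads of *Hps3* for each read of *Hps6*, so that *Hps6* had more reads than *Hps3* in BLEO-HPS1 and fewer in the other 3 libraries. From BLEO-WT to BLEO-HPS1 the log2 change of this quotient was -1.64 (-1.77 to -1.51, normal interval), and -0.60 with both genes GC-corrected. *Hps3* shares 108 exon bases with *Cp* on the opposite strand, which had 1137 to 2080 reads.

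In BLOC-1, *Dtnbp1*, which encodes dysbindin and is lost in the sandy mouse, was the member at least 2-fold higher with bleomycin in both genotypes. It lies on the minus strand at chr13:44922075-45002147 (ENSMUSG00000057531) and had 4088, 3850, 8383 and 6754 reads, or 52.4, 38.9, 106.9 and 106.9 CPM. Both bleomycin libraries lay above both PBS libraries and were level with each other, with genotype ratios of 0.00 (-0.05 to 0.05) with bleomycin, which the GC correction took to -0.55, and -0.43 (-0.50 to -0.37) with PBS. Its bleomycin ratio was 1.03 (0.97 to 1.08) in WT and 1.46 (1.40 to 1.52) in *Hps1*-/- mice. With total counts these were 0.76 and 0.82, and with the GC correction 0.83 and 0.61, so the direction was the same in each of these settings and the 2-fold call was not.

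*Bloc1s3* (ENSMUSG00000057667, minus strand, chr7:19504486-19508367), the reduced pigmentation gene, had 1637, 1440, 1681 and 1951 reads, or 21, 14.5, 21.4 and 30.9 CPM, the lowest in PBS-HPS1 and the highest in BLEO-HPS1. Its genotype ratios were -0.53 (-0.63 to -0.43) with PBS and 0.53 (0.43 to 0.62) with bleomycin. The bleomycin ratio was 0.03 (-0.07 to 0.13) in WT and 1.09 (0.99 to 1.19) in *Hps1*-/- mice, and *Bloc1s3* was the single member whose bleomycin ratios differed at least 2-fold between genotypes, by 1.06 (0.92 to 1.19, normal interval). Among the compared genes, 16.3% had a difference of 2-fold or more in this direction and 11.2% in the other (27.5% in either), and the difference of *Bloc1s3* was 0.73 with the GC correction. With total counts it was 0.68, and *Hps3* was then the single member past 2-fold, in the other direction, at -1.34, as it was with TMM factors from the compared genes alone, at -1.10 against 0.91 for *Bloc1s3*. The bleomycin ratio of *Bloc1s3* in WT was -0.23 with total counts. *Bloc1s6* (ENSMUSG00000005804, plus strand, chr2:122738503-122749475), the pallid gene, had 1599, 1621, 2071 and 1476 reads, or 20.5, 16.4, 26.4 and 23.4 CPM, highest in BLEO-WT. The genotype ratios of *Bloc1s6* were -0.32 and -0.18, the second 0.20 with the GC correction, and its bleomycin ratios 0.36 and 0.51. In *Hps1*-/- mice its bleomycin ratio was -0.13 with total counts and 1.10 with the GC correction.

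In AP-3, *Ap3d1* (ENSMUSG00000020198, minus strand, chr10:80706956-80742264), is the gene of the delta subunit and of the mocha mouse. It had 14224, 17951, 17091 and 13267 reads, or 182, 181, 218 and 210.0 CPM, with genotype ratios of -0.01 (-0.04 to 0.02) and -0.05 (-0.09 to -0.02) and bleomycin ratios of 0.26 and 0.21. With total counts the genotype ratios of *Ap3d1* were 0.24 and -0.19 and its bleomycin ratios -0.01 and -0.43, so 3 of these 4 directions depended on the scaling. *Ap3b1* (ENSMUSG00000021686, plus strand, chr13:94358960-94566317), the gene of the beta subunit and of the pearl mouse, had 10564, 11173, 10915 and 6377 reads, or 136, 113, 139 and 100.9 CPM. With TMM factors both *Hps1*-/- libraries were below both WT libraries. The genotype ratios of *Ap3b1* were -0.26 (-0.30 to -0.23) with PBS and -0.46 (-0.51 to -0.42) with bleomycin. With total counts they were -0.02 and -0.60, and PBS-HPS1 then lay above BLEO-WT. Reads of *Ap3b1* per read of *Ap3d1* were 0.743, 0.622, 0.639 and 0.481. The log2 change of this quotient from BLEO-WT to BLEO-HPS1, -0.41 (-0.47 to -0.35), came to -0.01 with both genes GC-corrected.

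**Figure D4:**
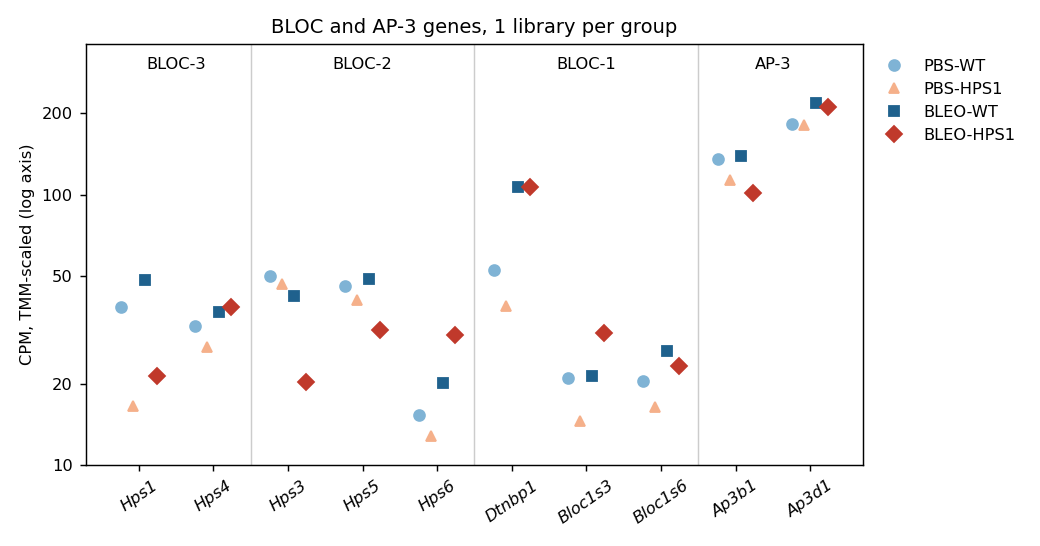
CPM on a log axis (vertical) of the 10 genes (horizontal), grouped by complex, with 1 symbol for each of the 4 libraries and no error bar, since no group had a replicate. *Hps1* is low in both *Hps1*-/- libraries, *Hps3* is low in BLEO-HPS1 at 20.3 CPM, and *Dtnbp1* is at 106.9 CPM in both bleomycin libraries.

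With bleomycin against PBS in WT mice, *Dtnbp1* was the 1 member at least 2-fold higher, where 5.28% of the compared genes were, and 0 members were 2-fold lower, where 8.22% were (13.5% in either direction). In *Hps1*-/- mice *Dtnbp1*, *Hps6* and *Bloc1s3* were at least 2-fold higher, where 26.2% of the compared genes were, and *Hps3* was 2-fold lower, where 19.6% were (45.9% in either direction). The calls in *Hps1*-/- mice turned on the setting. With the GC correction the 1 member past 2-fold was *Bloc1s6*, at 1.10, and with total counts there were 2, *Hps3* at -1.84 and *Hps5* at -1.005.

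Per kilobase of annotated exon, *Ap3b1*, *Ap3d1* and *Dtnbp1* were the 3 highest of the 10 genes in every library, between 10.4 and 30.6 RPKM, and the other 7 lay between 2.23 and 11.3. *Hps1* ranked 7 of 10 in PBS-WT, at 6.55 RPKM, where its counting interval overlapped that of *Bloc1s3*. It ranked 5 in BLEO-WT at 8.27, 10 in PBS-HPS1 at 2.84 and 9 in BLEO-HPS1 at 3.64. *Hps3* was the lowest in both bleomycin libraries, at 4.63 and 2.23 RPKM. Its annotated exons span 9103 bases and its longest transcript 4076, and with the longest transcript as the length, a choice made after the data were seen, it ranked 6 in BLEO-WT. Neighbours in rank whose intervals overlapped in PBS-WT were also *Hps5* and *Bloc1s3*, *Hps6* and *Hps3*, and *Hps3* and *Bloc1s6*.

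Promoters of several members hold the E-box CACGTG, a sequence bound by basic helix-loop-helix factors, and the windows around it are shown to compare members of different complexes. RefSeq promoters (GRCm38.p6, 250 bases before to 50 after the start site) were given for 9 members. The motif, which reads the same on both strands, was found in 4 of these 9, and in 8.09% of the 27025 genes of that table. In these windows, 5′ to 3′ on the strand of the gene, capitals mark the motif.
*Hps1*, minus strand, chr19:42779962-42779991: atgtggctgagtCACGTGtcctacccggaa
*Hps3*, minus strand, chr3:20035308-20035337: ggtcgcagcgctCACGTGatccggagcagc
*Hps5*, minus strand, chr7:46796091-46796120: gggcgctgagggCACGTGaccggaaacgcc
*Hps5*, minus strand, chr7:46796056-46796085: gggcctccggagCACGTGaccaccaccgcg
*Bloc1s3*, minus strand, chr7:19508361-19508390: cataactcggctCACGTGacgctgcgagag
Counted from the RefSeq start site, the first base of the motif was at -1 in *Hps1*, -15 in *Hps3*, -8 in *Bloc1s3*, and -227 and -192 in *Hps5*. The RefSeq start site of *Hps5* lies inside its annotated span given above, so both its motifs are nearer to the 5′ end of that span, at 46796064. The 4 genes with the motif had genotype ratios with bleomycin on both sides of 0, namely -1.18, -1.06 and -0.62 for *Hps1*, *Hps3* and *Hps5* and 0.53 for *Bloc1s3*.

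Of the 10 remaining subunits of BLOC-1 and AP-3, 9 were compared, the exception being *Ap3b2*, the neuronal beta subunit, at 0.190 to 0.564 CPM. In PBS-HPS1 all 9 were lower than in PBS-WT, with genotype ratios of -0.50 to -0.25, and none of the 9 was 2-fold lower. Together with the members, 19 of 19 subunits were below 0, where 70.8% of the compared genes were, and 16 below the median of all compared genes. That median was -0.19 with TMM factors and 0.05 with total counts, so the sign of the smaller ratios depends on the scaling. With bleomycin the 5 other BLOC-1 genes had genotype ratios of 0.65 (*Bloc1s1*), 0.50 (*Bloc1s2*), 0.47 (*Bloc1s5*), 0.13 (*Bloc1s4*) and -0.33 (*Snapin*). The 4 other AP-3 genes had ratios of 0.35 (*Ap3s2*), 0.32 (*Ap3m2*), -0.85 (*Ap3s1*) and -1.01 (*Ap3m1*). *Ap3m1*, which encodes the mu subunit, was thus 2-fold lower, at 20.1 against 40.6 CPM, and at -0.22 after the GC correction. *Ap3m1* shares 2090 exon bases with *Vcl* and *Snapin* 354 with *Ilf2*, both on the opposite strand, and *Bloc1s1* shares 720 with *Rdh5* on the same strand, so their counts are uncertain.

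Other adaptors and BLOC-related genes were examined as lists. AP-1 and AP-2, which act at the trans-Golgi network and the plasma membrane, had 8 and 5 compared genes, of which 0 were 2-fold different between genotypes with either treatment, where 5.27% of all compared genes were with PBS and 17% with bleomycin. In AP-4 and AP-5, 1 gene each of 4 was 2-fold lower with bleomycin, where 10.3% of all compared genes were. These were *Ap4e1* with a genotype ratio of -1.16 and *Ap5m1* with -1.02, which the GC correction took to -0.54 and -0.19. BORC, which positions lysosomes, shares some of its subunits with BLOC-1. Its 5 genes that are not BLOC-1 subunits were within 2-fold between genotypes with either treatment. The shares of all compared genes past 2-fold in either direction were again 5.27% and 17%. With PBS every compared gene of AP-1, of AP-2 and of these BORC genes had a genotype ratio below 0. The highest were -0.02, -0.15 and -0.34, and 70.8% of all compared genes were below 0. The median of all compared genes was -0.19 with TMM factors and 0.05 with total counts, so the sign of the smaller ratios depends on the scaling. AP-4 and AP-5 had genes on both sides of 0, up to 0.27 and 0.26.

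*Rab32*, a substrate of BLOC-3, was at 99.8, 75.8, 96.6 and 74.9 CPM, with genotype ratios of -0.40 and -0.37. *Rab38*, the other substrate, was close to the filter at 0.596 to 1.14 CPM. None of the 6 compared partners of BLOCs was 2-fold different between genotypes with either treatment. Of all compared genes, 5.27% were with PBS and 17% with bleomycin. A list of 10 genes held the HOPS and CORVET tethers, which dock membranes at late and early endosomes, and related proteins, *Vps33b* among the latter. *Vps33b* was 2-fold lower with bleomycin, at 9.15 in BLEO-HPS1 against 19.1 CPM in BLEO-WT (-1.06), and at -1.32 after the GC correction. The remaining 9 were within 2-fold with both treatments. Of all compared genes, 10.3% were 2-fold lower with bleomycin. With PBS all 10 genes of this list had genotype ratios below 0, the highest at -0.03, where 70.8% of all compared genes were. The median of all compared genes was -0.19 with TMM factors and 0.05 with total counts, so the sign of the smaller ratios depends on the scaling. The 6 partners of BLOCs ran from -0.51 to 0.42.

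Among 9 genes of cargo of AP-3 and BLOC-1, *Atp7a*, a copper transporter that BLOC-1 helps deliver to melanosomes, was the 1 gene 2-fold lower with bleomycin, with a genotype ratio of -1.32 and, after the GC correction, -0.77. Of all compared genes, 10.3% were 2-fold lower with bleomycin. With PBS the ratio of *Atp7a* was 0.17. *Cd63*, a tetraspanin of late endosomes and lysosomes, was at 119, 99.9, 716 and 690.3 CPM. Its genotype ratios were -0.25 and -0.05, and it was higher in both bleomycin libraries than in both PBS libraries, with bleomycin ratios of 2.59 in WT and 2.79 in *Hps1*-/- mice. In the machinery of secretory lysosomes 13 of 15 genes were compared. *Myo5a*, the myosin of the dilute mutant, had a genotype ratio with bleomycin of -1.83 and *Lyst*, the Chediak-Higashi gene, of -1.28, which the GC correction took to -1.17 and -0.60. With PBS the genotype ratios of *Myo5a* and *Lyst* were -0.46 and 0.02. *Sytl1* had a genotype ratio of -1.17 with PBS and, in the other direction, 0.63 with bleomycin. Of the 13 genes, 1 was 2-fold lower with PBS, where 3.11% of all compared genes were, and 2 with bleomycin, where 10.3% were.

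Melanosome genes served as a check for pigment cells. Of 10, 8 were below 1 CPM in every library, with *Tyrp1* and *Slc45a2* at 0 reads throughout. *Tyr*, which encodes tyrosinase, had at most 0.0202 CPM, below the level of 3 reads, which was 0.0303 to 0.0475 CPM. The 2 compared were *Pmel*, at 2.57 to 4.14 CPM, and *Mitf*, at 23.8, 29.4, 35.5 and 10.6 CPM, which was 2-fold lower with bleomycin (-1.74, and -1.12 after the GC correction).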

How the data were processed

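ILC2s sorted from mouse lung were sequenced in 4 groups of 1 library each, taken from the sample labels. The authors deposited whole-number read counts per Ensembl gene, without normalization, from a SMARTER mRNA kit. The aligner, counting tool, genome build and strand setting are not given in the sources used here. Of 49315 identifiers, 49056 were found in GENCODE M21 (GRCm38), whose positions, exon lengths and transcript GC content were used. TMM factors (edgeR 4.0.16, R 4.3.3, all genes) were 1.08 for PBS-WT, 0.895 for BLEO-WT, 1.27 for PBS-HPS1 and 0.816 for BLEO-HPS1. Log2 CPM used a prior count of 2. Genes at 1 CPM or more in some library were compared, and called past 2-fold. Without replicates no quasi-likelihood test of 1 group against another was possible, and an additive model of genotype and treatment, which leaves 1 residual degree of freedom, was not run.

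The members and gene lists were chosen with earlier results of these data known. Named were all members, the other subunits, at most 3 genes per list past 2-fold between genotypes, those with the largest ratios, the 5 genes nearest to *Hps1*, and the 3 neighbours within 500 kb with the largest ratios. *Rab32*, *Rab38*, *Cd63*, *Pmel*, *Tyr*, *Tyrp1* and *Slc45a2* and the overlapping genes were named after their values were seen. *Rab9a*, *Areg* and *Siglecf*, which were on the lists, were not analysed here. Alternatives were DESeq2's size factors (1.42.0), total counts, no filter, a filter of 10 counts in all libraries, prior counts of 0.5 and 10, and a loess fit (span 0.3) of ratios on GC content and length of the transcript for genes with a mean log2 CPM over 2. TMM factors from the compared genes alone were added after seeing the data. Steps were tested on simulated data. PCR copies are not independent molecules, so all intervals, and the level of 3 reads, describe counting error only.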

Additional observations from a re-analysis of the deposited data

Results flagged for a closer look

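In 2 members the bleomycin ratio had opposite signs in the 2 genotypes. *Hps5* had a log2 ratio of 0.09 (0.02 to 0.15) in WT and -0.36 (-0.44 to -0.28) in *Hps1*-/- mice, a difference of -0.45. *Ap3b1* had 0.04 (0.00 to 0.08) and -0.16 (-0.21 to -0.12), a difference of -0.20. With 1 library per group the difference was not tested. The opposite signs were not seen in these 2 settings. With total counts both genes were lower with bleomycin in both genotypes, *Hps5* at -0.18 and -1.005 and *Ap3b1* at -0.23 and -0.80. With the GC correction both were higher in both genotypes, *Hps5* at 0.15 and 0.04 and *Ap3b1* at 0.11 and 0.15.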

How the results depend on the processing

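The ratio of *Hps1* was below 0 in both genotype comparisons in every setting run. With total counts it was -0.96 with PBS and -1.31 with bleomycin, with the GC correction -1.48 with bleomycin, and with TMM factors from the compared genes alone, an alternative added after the data were seen, -1.04 with PBS. The number of members at least 2-fold different depended on the setting. Between genotypes with PBS it was 1, and 0 with total counts. Between genotypes with bleomycin it was 2, and 1 with DESeq2's size factors and with the GC correction. Between treatments in WT mice it was 1, and 0 with total counts, with the GC correction and with TMM factors from the compared genes. Between treatments in *Hps1*-/- mice it was 4, and 2 with total counts, 1 with the GC correction and 2 with TMM factors from the compared genes. For the difference of bleomycin ratios between genotypes it was 1, and 0 with the GC correction, and with total counts and with TMM factors from the compared genes it was 1 again but another gene in the other direction, *Hps3* at -1.34 and -1.10 in place of *Bloc1s3*. TMM factors and total counts shift all ratios of a comparison alike, and the median of all compared genes for BLEO-HPS1 against PBS-HPS1 was 0.25 and -0.39 with them. Of the other 48 ratios and differences of members, 17 changed sign with total counts, 14 with the GC correction, 8 with TMM factors from the compared genes and 3 with DESeq2's size factors, none of them a ratio past 2-fold. The filters and prior counts moved none by more than 0.0064. No paired analysis was possible because each group had 1 library, and for the same reason no library could be left out of a group.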
